A study of Mus musculus with 12 samples.

Results

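A set of 43 cell cycle genes was followed in RNA-seq of splenic conventional dendritic cells, the antigen-presenting cells that prime T cells. The members were named by symbol from common proliferation and G1 phase genes, and a member was kept where its CPM (reads of a gene scaled to the library's total) reached 1 in 3 or more of the 12 libraries. All 43 were kept, out of 27179 genes in the count table, of which 12395 met the same rule. CPM reached 1 in all 12 libraries for 42 members and in 11 libraries for Cenpf. Groups were type 1 dendritic cells (cDC1) of Zfp366-/- mice (KO cDC1), cDC1 of wild type mice (WT cDC1), type 2 dendritic cells (cDC2) of Zfp366-/- mice (KO cDC2) and cDC2 of wild type mice (WT cDC2), with 3 libraries each. The protein made from Zfp366, known as DC-SCRIPT, is a transcriptional regulator with zinc fingers. All mice were female C57/BL6, cells were sorted after enzymatic digestion of the spleen, and each library came from a pool of mice. Pools 1 to 3 were KO and pools 4 to 6 were WT, and each of the 6 pools gave a cDC1 and a cDC2 library. The age of the mice, the number per pool and the deleted part of Zfp366 are not given in the sources used here.

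A cell that leaves the resting state makes D-type cyclins, which with their kinases open the way into S phase, and CDK inhibitors hold this step back. E2F factors then switch on the genes of replication, whose licensing proteins load the MCM helicase onto origins. In G2 phase and mitosis a later set of genes builds the spindle, checks the kinetochores and ends mitosis through the anaphase-promoting complex (APC/C). Conventional dendritic cells in the spleen are short lived and are renewed from precursors, and some of them divide in the tissue. In bulk RNA a smaller share of dividing cells and less mRNA per dividing cell cannot be told apart.

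Total counts ran from 11330503 to 36761685 per library, a 3.24-fold range, and members took 30294 to 160088 reads per library. In each group replicate 1 stood apart: over all genes, chi-square per degree of freedom was 72.0 to 424 for pairs of replicates that include replicate 1 and 14.5 to 56.3 between replicates 2 and 3. The 8 markers of cDC1, such as Xcr1, summed to 4177 to 6124 CPM in cDC1 and to 110.5 to 263 CPM in cDC2, as the subset labels say. Zfp366 itself had 48.8, 48.4 and 45.4 CPM in KO cDC1 and 152, 89.2 and 67.5 CPM in WT cDC1. It had 55.0, 80.6 and 65.1 CPM in KO cDC2 and 52.6, 62.4 and 57.4 CPM in WT cDC2, so the level of its mRNA was lower in the libraries labelled KO in cDC1 but was not a check of the label in cDC2. Its log2 fold change, KO over WT, was -1.12 in cDC1 (SE 0.27, adjusted p = 0.0326, edgeR quasi-likelihood test) and 0.22 in cDC2 (SE 0.27, adjusted p = 1). The call in cDC1 ended without KO cDC1 replicate 1, 2 or 3, WT cDC1 replicate 2 or KO cDC2 replicate 3 (adjusted p = 0.114, 0.127, 0.142, 0.0718 and 0.0562).

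Promoters from RefSeq (GRCm38.p6, 250 bases before to 50 after the first listed start) were matched for 36 of the 43 members and read for the motifs known from cell cycle promoters. Ccnd1, Ccnd2, Ccne2, Mcm4, Ccna2, Aurkb and Kif20a had no entry. The motifs, searched on both strands, were TTTGAA (the core of the cell cycle genes homology region), CCAAT (the NF-Y box) and an E2F core. Its spellings, which can overlap, were TTCCCGC with a run of cytosines, TTCGCGC with C and G in turn, TTGCCGC with a G at the third letter and TTGGCGC with a pair of them. TTTGAA stood in 36.1% of member promoters, against 18.1% of 27025 promoters in the table. CCAAT stood in 72.2% of them, against 37.9% of all, and the E2F core in 36.1%, against 9.69%. The roles differed: TTTGAA was in 11 of 15 promoters of genes for mitotic cyclins, kinases, spindle, APC/C and mitotic chromosomes and in 2 of 12 promoters of genes for licensing, the clamp and nucleotide supply. The E2F core was in 3 of those 15 and in 8 of those 12. Among 9 promoters of D-type cyclins and their kinases, CDK inhibitors and S phase entry genes, 0 held TTTGAA, 2 held CCAAT and 2 held the E2F core. A match is a string of letters and does not show that a factor binds. Other spellings were not searched, so the lack of a match does not show that a promoter has no site. In comparisons fitted on all 12 libraries without a gene length offset, 5 members were called. Their genes lie (GRCm38) on chromosome 10 at 21124930 to 21160984 (Myb), 7 at 144929931 to 144939831 (Ccnd1), 4 at 109660876 to 109666756 (Cdkn2c), 11 at 98907709 to 98923942 (Cdc6) and 16 at 18780447 to 18811972 (Cdc45). The span of Ccnd1 overlaps LTO1 and that of Cdc45 overlaps Ufd1. Without a stated strand setting, reads from a stretch in exons of both genes may not be told apart, and whether exons overlap was not examined.

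The promoters of 5 members are printed, and capitals mark these motifs on either strand. Myb and Cdc45 are called members, and Mcm6, Mki67 and Ube2c were called in no comparison fitted on all 12 libraries without a gene length offset. With the offset Mcm6 was called higher in KO cDC1 than in KO cDC2, while 19% of all genes were called in either direction. Promoters of the called members Cdkn2c and Cdc6, with 1 E2F match each, are not printed. Mcm6 (the licensing gene with the highest level) has 5 E2F matches and 2 CCAAT boxes (chr1:128359656-128359955, minus strand), and Cdc45 (a replication gene called higher in KO cDC1 than in KO cDC2) has 2 TTTGAA and 2 CCAAT (chr16:18811923-18812222, minus strand). Myb has none of the spellings searched (chr10:21160935-21161234, minus strand), which does not exclude a site spelled otherwise. It was the only member called between genotypes on all 12 libraries without a block on replicate number. Mki67 (chr7:135716330-135716629, minus strand) and Ube2c (chr2:164769679-164769978, plus strand) share TTTGAA and CCAAT and are set side by side because their levels went different ways among libraries.
Mcm6: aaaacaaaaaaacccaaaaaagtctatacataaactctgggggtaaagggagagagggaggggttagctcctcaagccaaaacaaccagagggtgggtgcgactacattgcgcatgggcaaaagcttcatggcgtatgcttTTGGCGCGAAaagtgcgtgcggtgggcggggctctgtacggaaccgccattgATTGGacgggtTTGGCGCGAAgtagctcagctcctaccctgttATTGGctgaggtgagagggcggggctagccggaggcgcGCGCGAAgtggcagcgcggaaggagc
Cdc45: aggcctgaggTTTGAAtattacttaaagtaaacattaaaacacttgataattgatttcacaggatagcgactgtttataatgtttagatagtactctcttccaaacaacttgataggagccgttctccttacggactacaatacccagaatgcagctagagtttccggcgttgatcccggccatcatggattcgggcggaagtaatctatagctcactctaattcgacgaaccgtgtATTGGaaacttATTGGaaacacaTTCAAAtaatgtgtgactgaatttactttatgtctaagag
Myb: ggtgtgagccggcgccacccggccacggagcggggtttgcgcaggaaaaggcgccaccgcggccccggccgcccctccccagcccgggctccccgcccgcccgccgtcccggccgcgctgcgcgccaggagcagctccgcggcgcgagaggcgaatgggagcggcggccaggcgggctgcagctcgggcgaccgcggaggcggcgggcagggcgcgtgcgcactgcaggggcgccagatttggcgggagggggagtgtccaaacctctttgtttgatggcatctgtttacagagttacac
Mki67: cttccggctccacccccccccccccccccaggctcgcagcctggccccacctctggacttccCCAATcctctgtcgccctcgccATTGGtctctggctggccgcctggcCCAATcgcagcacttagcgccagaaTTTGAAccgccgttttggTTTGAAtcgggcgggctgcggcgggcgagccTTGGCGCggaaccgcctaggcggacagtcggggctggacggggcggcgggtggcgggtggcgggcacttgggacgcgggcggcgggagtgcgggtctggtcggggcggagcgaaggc
Ube2c: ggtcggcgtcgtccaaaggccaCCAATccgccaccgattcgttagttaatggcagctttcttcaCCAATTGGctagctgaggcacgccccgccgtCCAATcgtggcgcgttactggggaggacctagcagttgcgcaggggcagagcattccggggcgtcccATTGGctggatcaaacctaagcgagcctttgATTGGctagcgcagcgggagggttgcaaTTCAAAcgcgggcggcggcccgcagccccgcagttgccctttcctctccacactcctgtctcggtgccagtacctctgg

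Levels between genes are compared as CPM divided by the deposited gene length in kilobases (RPKM). The D-type cyclin Ccnd1 led with a mean of 188 RPKM over the 12 libraries. It was followed by the replication clamp Pcna (156), the D-cyclin kinase Cdk4 (145), the CDK inhibitor Cdkn1b (70.6) and the helicase subunit Mcm6 (64.3). At the other end stood the kinetochore proteins Cenpe (1.19) and Cenpf (0.491). Mitotic genes lay between, at 37.0 RPKM for Ube2c, 30.9 for Ccnb2, 22.0 for Top2a and 5.60 for Mki67, so mRNAs of G2 phase and mitosis were present in all 4 groups. Pcna varied least among the 12 libraries, by 1.34-fold in CPM, and Cenpf most, by 120.5-fold, with 0.105 to 12.7 CPM. The lowest Cenpf value rests on 3 reads in WT cDC2 replicate 1, and the next lowest was 1.91 CPM in WT cDC1 replicate 3.

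**Figure D1:**
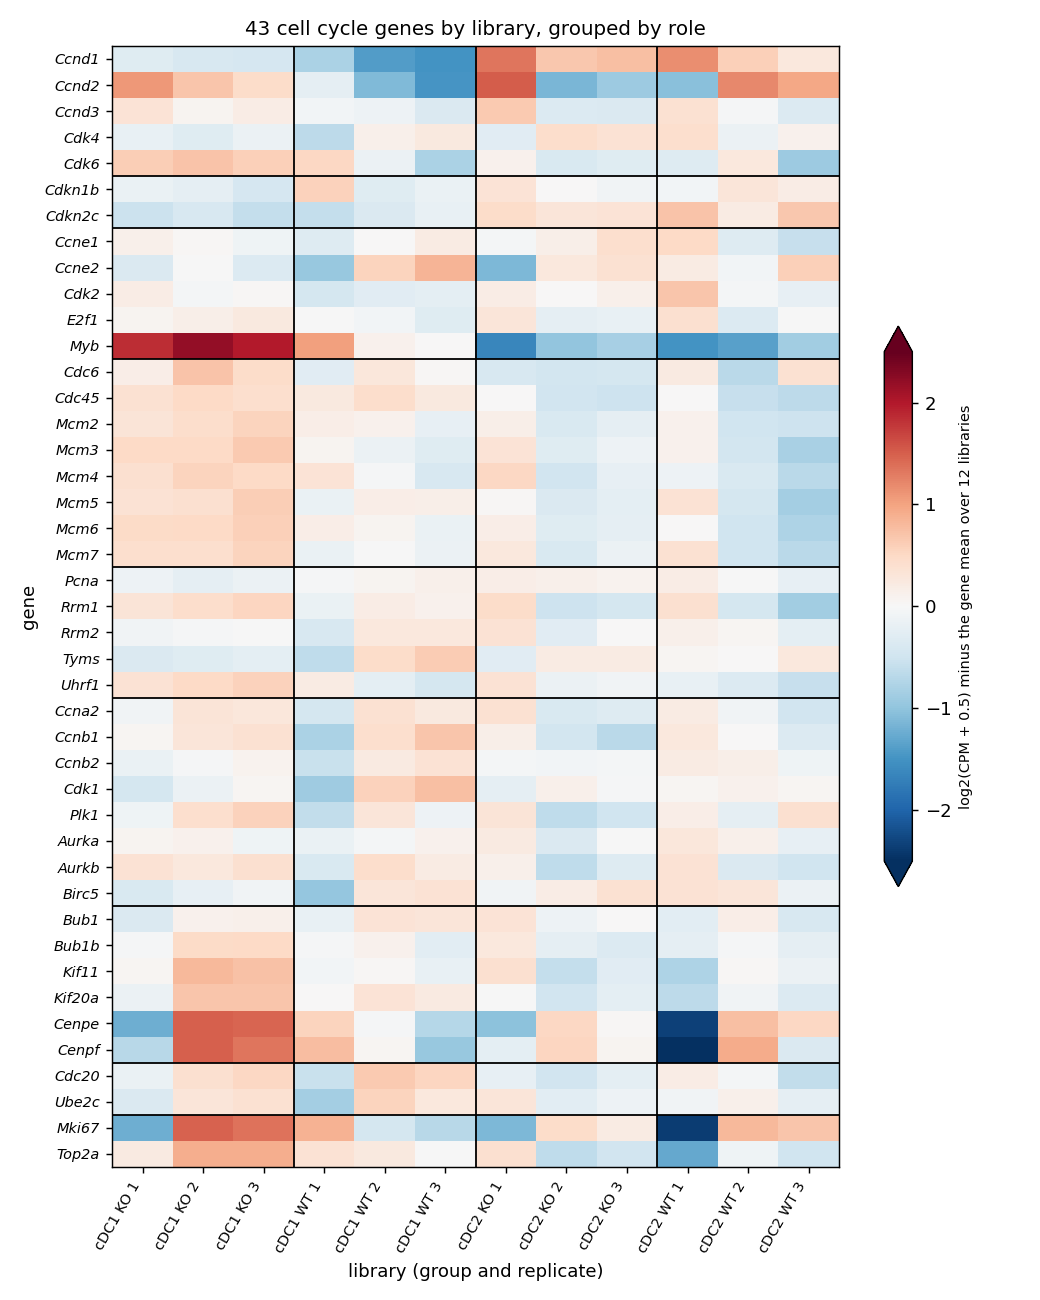
Colour gives log2(CPM + 0.5) of each of the 43 genes (rows, divided by role) minus its mean over the 12 libraries (columns, 3 replicates per group), and levels beyond the scale take its end colours. Myb is high in the 3 KO cDC1 libraries, Ccnd1 is high in all 6 cDC2 libraries, and the long genes Mki67, Cenpe and Cenpf separate replicate 1 from replicates 2 and 3.

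D-type cyclins carry growth signals to Cdk4 and Cdk6. Ccnd1 had 479, 453 and 443 CPM in KO cDC1 and 344, 226 and 210.2 CPM in WT cDC1. It had 1513, 947 and 1007 CPM in KO cDC2 and 1338, 897 and 715 CPM in WT cDC2. All 6 cDC2 libraries lay above all 6 cDC1 libraries, and all KO cDC1 libraries above all WT cDC1 libraries, while KO and WT cDC2 overlapped. Ccnd1 made up 7.74% to 14.8% of the summed CPM of the members in cDC1 and 25.9% to 34.5% in cDC2. Ccnd2 ranged over 8.38 to 69.7 CPM and went with neither label alone: it was high in KO cDC2 replicate 1 and in WT cDC2 replicates 2 and 3 and low in the other cDC2 libraries. Ccnd3 (68.4 to 139.6 CPM), Cdk4 (121 to 259 CPM) and Cdk6 (2.37 to 8.29 CPM) varied less.

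CDK inhibitors oppose these kinases. Cdkn1b encodes an inhibitor of cyclin-CDK complexes that holds cells in rest, and had 148, 142 and 124 CPM in KO cDC1 and 249.5, 134 and 149 CPM in WT cDC1. It had 211, 168 and 156 CPM in KO cDC2 and 159, 206 and 189.6 CPM in WT cDC2, with WT cDC1 replicate 1 the highest of all. Cdkn2c encodes an INK4 inhibitor that binds Cdk4 and Cdk6, and had 14.9, 16.6 and 14.5 CPM in KO cDC1 and 14.3, 16.9 and 19.3 CPM in WT cDC1. It had 30.5, 27.2 and 27.9 CPM in KO cDC2 and 36.2, 25.5 and 35.2 CPM in WT cDC2. All 6 cDC2 libraries were above all 6 cDC1 libraries for Cdkn2c, and the genotypes overlapped in both subsets.

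Cdk2, the kinase partner of E-type cyclins, had the highest RPKM of the S phase entry genes. Cdk2 had 44.0, 37.6 and 39.3 CPM in KO cDC1 and 28.6, 31.8 and 32.8 CPM in WT cDC1. It had 44.2, 39.0 and 42.3 CPM in KO cDC2 and 62.7, 37.6 and 33.5 CPM in WT cDC2, so all KO cDC1 libraries were above all WT cDC1 libraries, with overlap in cDC2. Cyclin E genes Ccne1 (5.92 to 13.1 CPM) and Ccne2 (3.51 to 15.3 CPM) and the transcription factor E2f1 (27.7 to 46.5 CPM) overlapped between the subsets. Myb, a transcription factor of blood progenitors that acts in cycling cells, had 25.4, 32.3 and 27.8 CPM in KO cDC1 and 14.1, 7.25 and 6.71 CPM in WT cDC1. It had 1.81, 3.11 and 3.57 CPM in KO cDC2 and 2.07, 2.32 and 3.46 CPM in WT cDC2. All KO cDC1 libraries lay above all WT cDC1 libraries, these lay above all cDC2 libraries, and KO and WT cDC2 overlapped.

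Licensing and firing genes put the helicase on origins and start it. Mcm6 had 251, 252 and 271 CPM in KO cDC1 and 203, 188 and 161 CPM in WT cDC1. It had 201, 146 and 153 CPM in KO cDC2 and 180.3, 127 and 105 CPM in WT cDC2. All KO cDC1 libraries lay above the other 9 libraries, and WT cDC1 overlapped with cDC2. Cdc6, the loader of the helicase, had 13.7, 20.4 and 17.0 CPM in KO cDC1 and 9.95, 14.8 and 12.4 CPM in WT cDC1, overlapping. It had 9.02, 8.71 and 8.86 CPM in KO cDC2 and 14.3, 7.39 and 15.9 CPM in WT cDC2, where WT replicate 2 was lowest. Cdc45, which turns the helicase on, had 26.8, 29.1 and 27.7 CPM in KO cDC1 and 24.5, 28.0 and 24.6 CPM in WT cDC1. It had 20.7, 14.6 and 14.3 CPM in KO cDC2 and 20.9, 13.6 and 12.8 CPM in WT cDC2, and all cDC1 libraries were above all cDC2 libraries. Over Mcm2, Mcm3, Mcm4, Mcm5, Mcm6, Mcm7, Cdc6 and Cdc45 together, summed CPM was 1158 ± 68.0 in KO cDC1 and 822 ± 59.0 in WT cDC1, and 769 ± 166 in KO cDC2 and 670.4 ± 218 in WT cDC2 (SD, n = 3 each).

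Pcna, the sliding clamp of the replication fork, led the genes of the clamp, of nucleotide supply and of maintenance methylation. Pcna had 179, 167 and 176 CPM in KO cDC1 and 192, 205 and 213 CPM in WT cDC1, with all KO libraries below all WT libraries. It had 219, 213 and 209 CPM in KO cDC2 and 223, 196 and 170.1 CPM in WT cDC2. The ribonucleotide reductase subunits Rrm1 (63.1 to 168 CPM) and Rrm2 (49.7 to 83.8 CPM), thymidylate synthase Tyms (23.9 to 57.9 CPM) and Uhrf1 (39.7 to 88.4 CPM), which guides DNA methylation behind the fork, make up the rest of this role. Summed CPM of these 5 genes was 507 ± 19.6 in KO cDC1 and 491 ± 46.3 in WT cDC1, and 489.8 ± 67.7 in KO cDC2 and 448 ± 83.9 in WT cDC2 (SD, n = 3 each).

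Mitotic cyclins and kinases drive entry into mitosis. Ccnb2, a cyclin partner of Cdk1, had 41.7, 45.9 and 50.3 CPM in KO cDC1 and 31.7, 55.3 and 60.7 CPM in WT cDC1. It had 45.3, 44.6 and 45.4 CPM in KO cDC2 and 54.5, 52.0 and 43.4 CPM in WT cDC2, and all groups overlapped. Summed CPM of Ccna2, Ccnb1, Ccnb2, the mitotic kinases Cdk1, Plk1, Aurka and Aurkb and the Aurora B partner Birc5 was 269 ± 27.4 in KO cDC1 and 284 ± 98.5 in WT cDC1, and 252 ± 21.0 in KO cDC2 and 269 ± 37.6 in WT cDC2 (SD, n = 3 each). In WT cDC1 replicate 1 was at 170.3 CPM and replicates 2 and 3 at 336 and 345 CPM.

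Of the spindle and kinetochore genes Bub1b, a checkpoint protein, had the highest level. Bub1b had 36.2, 51.6 and 51.9 CPM in KO cDC1 and 36.0, 39.7 and 30.5 CPM in WT cDC1. It had 44.4, 31.2 and 29.0 CPM in KO cDC2 and 31.6, 35.8 and 31.6 CPM in WT cDC2. KO cDC1 replicates 2 and 3 were above the other 10 libraries, and the groups overlapped. Its checkpoint partner Bub1 (17.7 to 30.0 CPM) and the mitotic motors Kif11 (21.2 to 64.1 CPM) and Kif20a (10.7 to 27.9 CPM) had narrower ranges than the kinetochore motor Cenpe (1.02 to 21.2 CPM) and Cenpf.

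The APC/C members were Ube2c, its ubiquitin-conjugating enzyme, and its activator Cdc20 (14.8 to 36.7 CPM). Ube2c had 25.7, 41.3 and 43.5 CPM in KO cDC1 and 18.1, 49.2 and 40.2 CPM in WT cDC1. It had 41.3, 27.5 and 30.4 CPM in KO cDC2 and 31.4, 36.2 and 28.3 CPM in WT cDC2, and the groups overlapped. Top2a, which untangles chromosomes before they part, had 122, 198 and 197 CPM in KO cDC1 and 135, 124 and 104 CPM in WT cDC1. It had 138, 67.6 and 75.1 CPM in KO cDC2 and 42.9, 98.1 and 74.0 CPM in WT cDC2. KO cDC1 replicates 2 and 3 were highest and WT cDC2 replicate 1 lowest. Mki67, the proliferation marker that coats mitotic chromosomes, is described with the replicates below.

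The effect of genotype in cDC1 was asked first. Of the 43 members only Myb passed at an adjusted p below 0.05 in edgeR's quasi-likelihood test with Benjamini-Hochberg adjustment over 13415 genes, and it rose in KO cDC1. That is 1 of 43 members higher and 0 lower, beside 3.6% of all genes higher and 1.72% lower (5.32% in either direction). Myb averaged 28.5 ± 3.51 CPM in KO cDC1 and 9.36 ± 4.14 CPM in WT cDC1 (SD, n = 3 each), a log2 fold change of 1.60 (SE 0.35) with an adjusted p of 0.0172. Its call ended without KO cDC1 replicate 2 or 3 (adjusted p = 0.0822 and 0.0599) and without WT cDC1 replicate 2 or 3 (0.102 and 0.0888).

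Below Myb, the smallest p-values in cDC1 belonged to Ccnd1, Uhrf1 and Mcm3, and none passed in this fit. Their log2 fold changes were 0.82 (SE 0.29), 0.61 (SE 0.22) and 0.68 (SE 0.25), with adjusted p of 0.145, 0.155 and 0.164 in edgeR's test. Without WT cDC1 replicate 1 both Ccnd1 (adjusted p = 0.0230) and Uhrf1 (0.0174) passed, and the members called became 3 higher (these and Myb) and 2 lower (Cdk1 and Tyms), while 22.3% of all genes were then called. Of all members, 31 had a log2 fold change above 0 and 12 below, with a median of 0.38, against a median of 0.00 over all genes tested. With a gene length offset the members' median was 0.19, against -0.08 over all genes, and with replicates 2 and 3 only and the offset it was 0.12, against -0.07.

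KO cDC1 libraries lay wholly above WT cDC1 libraries for 16 members and wholly below for 1, Pcna, beside 15.5% and 11.4% of all genes. The higher ones were 6 of 8 licensing genes (Mcm2, Mcm3, Mcm4, Mcm5, Mcm6 and Mcm7), 4 of 5 D-type cyclins and kinases (Ccnd1, Ccnd2, Ccnd3 and Cdk6), 3 of 5 S phase entry genes (Cdk2, E2f1 and Myb), Rrm1, Uhrf1 and the motor Kif11. None of the 8 mitotic cyclins and kinases was among them. Both CDK inhibitors had log2 fold changes below 0, -0.36 for Cdkn1b and -0.13 for Cdkn2c, without passing the test.

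Cell type markers also differed between genotypes in these libraries. The 8 cDC2 markers, such as Sirpa and Irf4, summed to 485.9 to 498 CPM in KO cDC1 and 59.8 to 77.4 CPM in WT cDC1, and 7 of 8 were called higher. The 6 monocyte markers summed to 511 to 654 CPM in KO cDC1 and 77.3 to 142 CPM in WT cDC1, with 1 of 5 tested called, Ccr2, and with Vcan at 0 in WT cDC1. Ccr2 alone made up most of these sums, at 625, 486 and 464 CPM in KO cDC1 and 114, 42.6 and 51.6 CPM in WT cDC1. Ly6c2, Fcgr1, Csf1r, Vcan and F13a1 each overlapped between KO and WT cDC1. The 9 progenitor markers summed to 1114 to 1209 CPM in KO cDC1 and 699 to 1430.1 CPM in WT cDC1, with 0 of 6 tested called and with Ctsg and Elane at 0 in both groups and Mpo at 0 in KO cDC1. The 8 cDC1 markers summed to 4177 to 4554 CPM in KO cDC1 and 4768 to 6124 CPM in WT cDC1, with 1 of 8, Itgae, called lower. Of the 8 plasmacytoid dendritic cell markers Pacsin1 and Ccr9 were called lower, and of the 8 red pulp macrophage markers Vcam1. The part of other cells in these results was not tested.

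**Figure D2:**
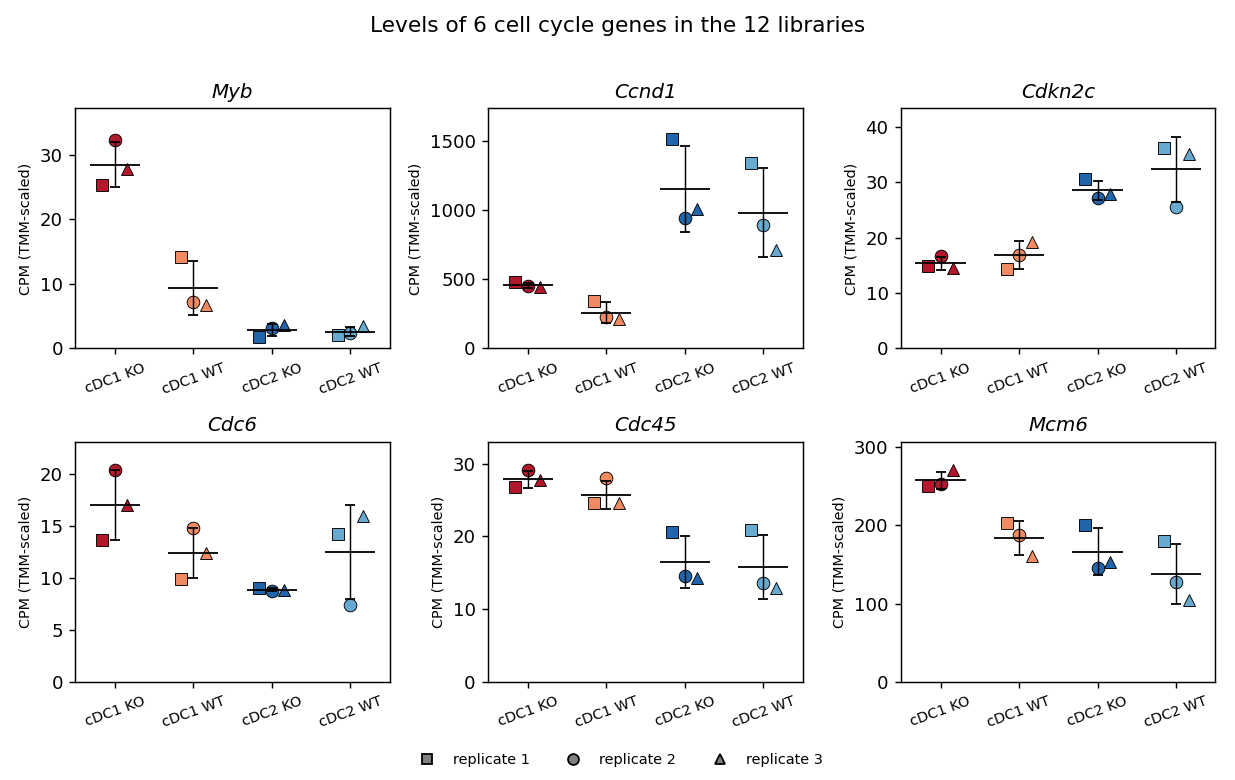
CPM (TMM-scaled, linear axes that start at 0) of 6 genes in the 12 libraries, by group from KO cDC1 to WT cDC2, with the marker shape giving the replicate and bars the mean ± SD of 3 libraries. Myb runs at 25.4 to 32.3 CPM in KO cDC1 and 6.71 to 14.1 CPM in WT cDC1, and Ccnd1 and Cdkn2c are higher in cDC2 than in cDC1.

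In cDC2 no member passed the test between genotypes. The edgeR test called 0 of 43 members between cDC2 libraries labelled KO and WT cDC2 libraries, and 0 of 13415 genes (a background of 0%), with 0 members and 271 genes at an unadjusted p below 0.05. DESeq2 and limma-voom also called 0 members. The smallest p-values belonged to Uhrf1, Cdc6, Mcm4 and Mcm3, with log2 fold changes of 0.42 (SE 0.22), -0.50 (SE 0.29), 0.38 (SE 0.27) and 0.34 (SE 0.25) and an adjusted p of 1 for each. Uhrf1 was the only member whose KO cDC2 libraries (76.1, 53.5 and 55.8 CPM) all lay above its WT cDC2 libraries (52.1, 46.8 and 39.7 CPM), and none lay wholly below, beside 3.33% and 2.55% of all genes. Log2 fold changes of the members ran over -0.50 to 0.42 with a median of 0.05, against 0.02 over all genes. This median changed sign without KO cDC2 replicate 1 (-0.08) or WT cDC2 replicate 3 (-0.04) and with a gene length offset (-0.07, against -0.09 over all genes), and was 0.12 without KO cDC2 replicate 2.

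**Figure D3:**
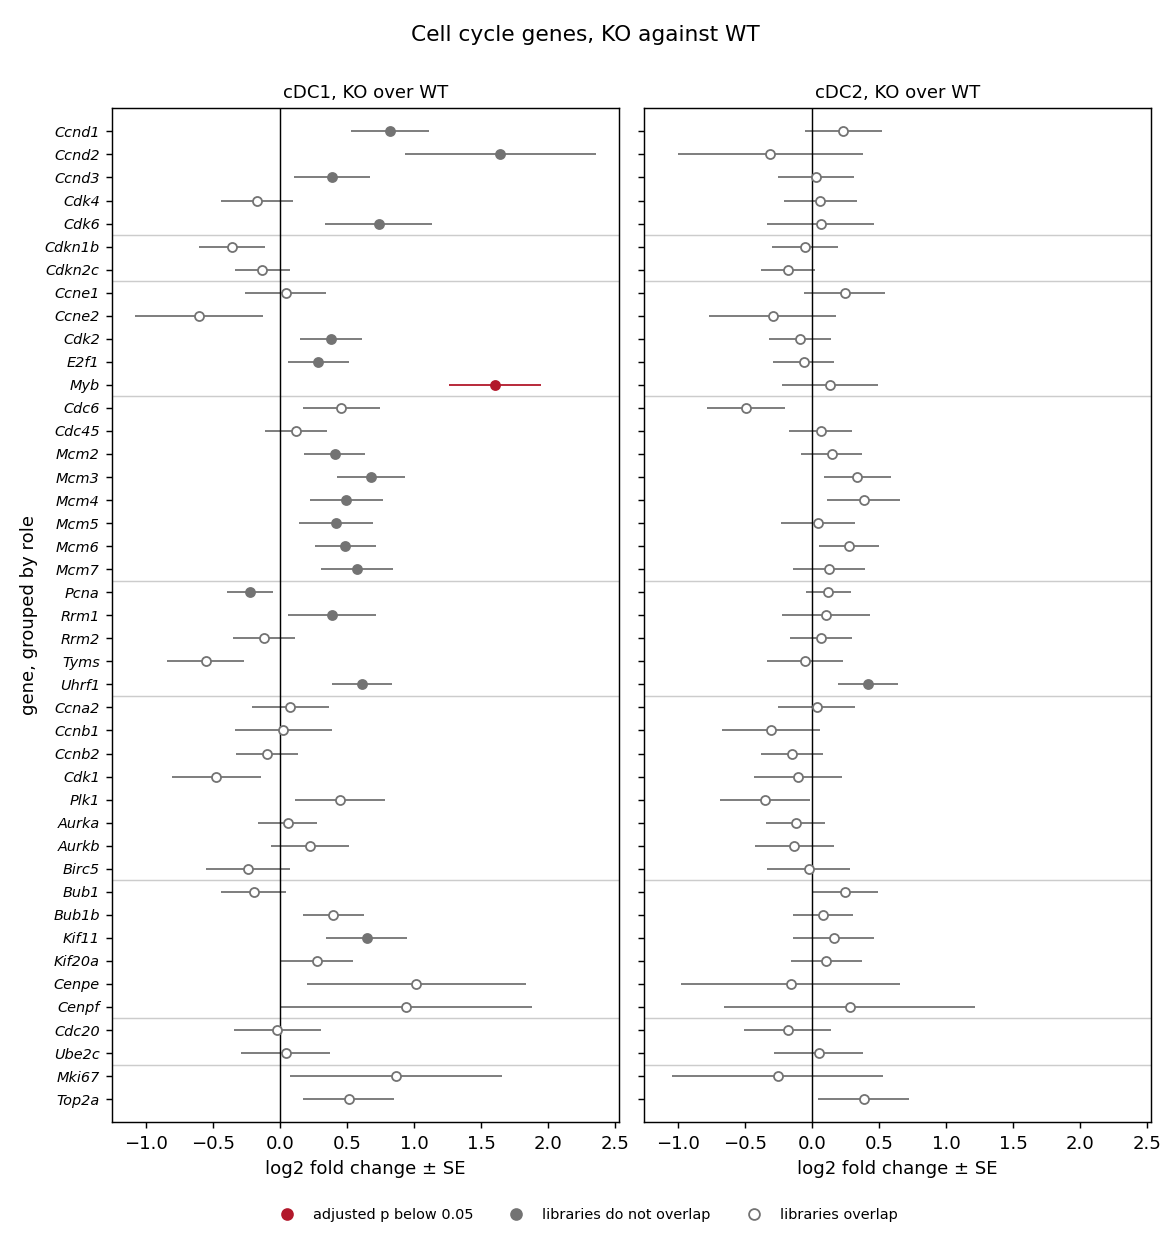
Log2 fold change ± SE, KO over WT, of the 43 genes by role in cDC1 (left) and cDC2 (right), with red for an adjusted p below 0.05 and filled grey for libraries that do not overlap. In cDC1 Myb is the red point at 1.60 and all 8 licensing genes lie above 0, and in cDC2 no point is red.

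The difference between the genotype effects of the subsets was then tested for each gene. None of the 43 members passed in edgeR's interaction test, beside 1.27% of all genes higher and 0.149% lower (1.42% in either direction), and 2 members, Myb and Cdc6, had an unadjusted p below 0.05. DESeq2 and limma-voom also called 0 members. The log2 difference, effect in cDC1 minus effect in cDC2, was 1.48 (SE 0.50) for Myb, 0.95 (SE 0.41) for Cdc6, 1.96 (SE 0.99) for Ccnd2 and 0.80 (SE 0.48) for Plk1. The adjusted p was 0.247 for Myb, 0.468 for Cdc6, 0.609 for Ccnd2 and 0.704 for Plk1, so the genotype effect on Myb is not shown to differ between cDC1 and cDC2. Without WT cDC1 replicate 1 Myb passed (adjusted p = 0.0332), while 3.65% of all genes were called. The interaction test shares all its libraries with the genotype comparisons. It took the 12 libraries as independent, although cDC1 and cDC2 of a pool come from the same mice, and was not fitted with the pool as a block.

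The subsets were next compared within each genotype, and in KO mice 5 members passed. Myb, Cdc6 and Cdc45 were higher in KO cDC1 than in KO cDC2 and Ccnd1 and Cdkn2c were lower, which is 3 of 43 higher and 2 lower, beside 8.45% and 8.43% of all genes (16.9% in either direction). Myb averaged 28.5 ± 3.51 CPM in KO cDC1 and 2.83 ± 0.911 CPM in KO cDC2 (SD, n = 3 each), a log2 fold change of 3.33 (SE 0.37) with an adjusted p of 6.41e-05 in edgeR's test. Ccnd1 was at -1.34 (SE 0.29), adjusted p = 0.00820, and Cdkn2c at -0.89 (SE 0.21), adjusted p = 0.0105. Cdkn2c lost its call without KO cDC1 replicate 1 or 3 (0.0514 and 0.0609) and with each gene length offset, at -0.39 with an adjusted p of 0.163 when replicate 1 was left out as well.

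The replication genes were nearer the threshold. Cdc6 had a log2 fold change of 0.94 (SE 0.29), adjusted p = 0.0438, and Cdc45 of 0.76 (SE 0.23), adjusted p = 0.0444, in edgeR's test. With the pool as a block, Cdc6 (adjusted p = 0.123) and Cdc45 (0.0952) no longer passed, so that 1 member was called higher and 2 lower. Neither passed without a filter on low counts, and Cdc6 did not pass with a gene length offset (adjusted p of up to 0.250 with the block as well). Cdc6 also lost its call without any single KO cDC1 or KO cDC2 library or without WT cDC1 replicate 2 or 3, and Cdc45 without KO cDC1 replicate 1, 2 or 3, KO cDC2 replicate 2 or 3, WT cDC1 replicate 2 or 3 or WT cDC2 replicate 2, with adjusted p of up to 0.173 and 0.177. Without KO cDC2 replicate 1 the members called higher were 8, while 21.8% of all genes were called in either direction, and without WT cDC2 replicate 1 they were 5, while 19% were called. They were 2 without KO cDC1 replicate 1 (9.49% of all genes) or WT cDC2 replicate 2 (14.5%), and 1, with 8.85% to 16.2% of all genes called, without KO cDC1 replicate 2 or 3, WT cDC1 replicate 2 or 3, or KO cDC2 replicate 2 or 3.

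All 8 licensing genes had log2 fold changes of 0.48 to 0.94 in this comparison, with a median of 0.60, against 0.43 over the members and 0.00 over all genes. The members' median was 0.77 with replicates 2 and 3 only and 0.38 with a gene length offset, against 0.02 over all genes with the offset. It was 0.63 without KO cDC2 replicate 1, 0.33 without KO cDC2 replicate 2 and 0.35 without KO cDC2 replicate 3. For 7 of the 8 licensing genes the KO cDC1 libraries lay wholly above the KO cDC2 libraries. Over all members this held for 11, with 4 wholly below, beside 25.1% and 22.7% of all genes. Within single pools Mcm2 and Mcm6 were, like Myb and Cdc45, higher in cDC1 in 6 of 6 pools, and Ccnd1 and Cdkn2c were lower in cDC1 in 6 of 6. Mcm4 was higher in cDC1 in 2 of 3 KO pools and 3 of 3 WT pools. The mitotic cyclins and kinases had a median of 0.15 in KO mice and 0.09 in WT mice, and 0 of 8 passed in either.

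Between the subsets of WT mice 3 members passed. Ccnd1 and Cdkn2c were lower in cDC1 than in cDC2 and Myb was higher, which is 1 member higher and 2 lower, beside 10.4% and 10.9% of all genes (21.2% in either direction). Ccnd1 averaged 259.9 ± 72.8 CPM in WT cDC1 and 983 ± 321 CPM in WT cDC2 (SD, n = 3 each), a log2 fold change of -1.92 (SE 0.30) with an adjusted p of 0.000542 in edgeR's test. Myb was at 1.86 (SE 0.36), adjusted p = 0.00268, and Cdkn2c at -0.94 (SE 0.21), adjusted p = 0.00568, in the same fit. These 3 calls held without any single library and with the pool of mice as a block, and Cdkn2c lost its call in a fit of only the groups compared (adjusted p = 0.0606).

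In WT mice the member next in order was Cdc45, with a log2 fold change of 0.70 (SE 0.24) and an adjusted p of 0.0515 in edgeR's test. It passed without KO cDC2 replicate 1 (0.0362) or WT cDC2 replicate 1 (0.0102), and without WT cDC2 replicate 1 the members called higher became 4, with Mcm5 and Mcm6, while 21.6% of all genes were called in either direction. Without KO cDC2 replicate 1 or WT cDC1 replicate 1 they became 2, with Cdc45 or Cdk1 beside Myb, while 22.4% and 23.8% of all genes were called. Non-overlapping WT libraries were higher in cDC1 for 4 members (Myb, Cdc45, Top2a and Kif20a) and lower for 3 (Ccnd1, Cdkn2c and Cdk2), beside 16.5% and 16.2% of all genes. The median log2 fold change of the members was 0.14, against 0.02 over all genes, and it was 0.05 without WT cDC1 replicate 2, 0.07 without WT cDC2 replicate 3 and 0.31 with replicates 2 and 3 only.

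**Figure D4:**
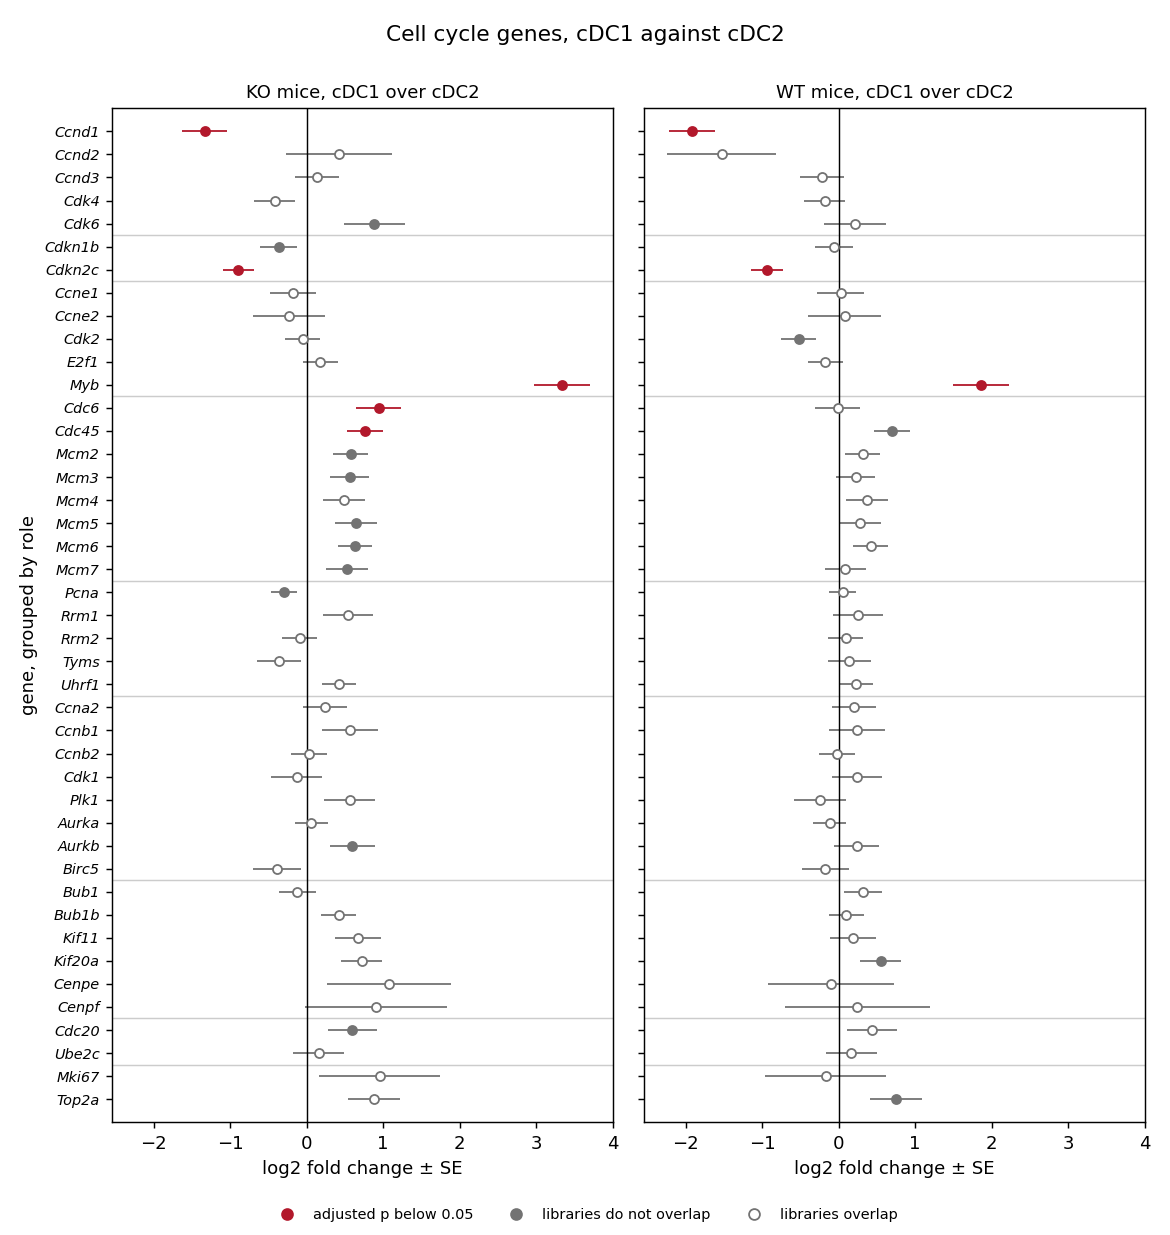
Log2 fold change ± SE, cDC1 over cDC2, of the 43 genes by role in KO mice (left) and WT mice (right), marked as in the plot of genotype effects. Myb stands farthest to the right in both panels at 3.33 and 1.86, Ccnd1 farthest to the left at -1.34 and -1.92, and Cdkn2c is also red on the left side of both.

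Other cell cycle genes were read from 8 lists with 172 genes outside the members, of which Ccnd1bp1 was not matched. In cDC1, KO against WT, the repressor E2f8 (log2 fold change 1.00, adjusted p = 0.0459) and the cyclin F gene Ccnf (1.15, 0.0162) rose in KO and E2f5 (-1.05, 0.0221), a factor of the repressive E2F group, fell, by edgeR's test. They were 1 of 18 tested higher and 1 lower in G1 and S control and 1 of 16 higher in G2 and mitotic entry, and 0 were called in the other 6 lists, beside 3.6% of all genes higher and 1.72% lower. Leaving out 1 of the 12 libraries ended the call of E2f8 in 7 cases, of E2f5 in 4 and of Ccnf in 3, with adjusted p of up to 0.204, 0.137 and 0.0746. No gene of the lists passed in cDC2 or for the difference of the effects.

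The list of CDK inhibitors and antiproliferative genes had 2 of 19 higher and 4 lower in KO cDC1 against KO cDC2, and 0 of 19 higher and 4 lower in WT cDC1 against WT cDC2, beside 8.45% and 8.43% of all genes in KO mice and 10.4% and 10.9% in WT mice. In KO mice Cdkn2a (-3.65 on the log2 scale), Cdkn2b (-1.74) and Gadd45g were lower in cDC1 and Cdkn1c (2.16) was higher. Gadd45g averaged 7.14 ± 2.68 CPM in KO cDC1 and 28.6 ± 9.32 CPM in KO cDC2 (SD, n = 3 each). Cdkn1c was low in both, at 1.45 ± 0.396 CPM in KO cDC1 and 0.324 ± 0.159 CPM in KO cDC2. Cdkn2a was low in KO cDC1, at 0.510 ± 0.233 CPM. It averaged 6.45 ± 4.65 CPM in KO cDC2, where replicate 1 was far below replicates 2 and 3. With the pool as a block Cdkn2a, Cdkn2b, Gadd45g and Cdkn1c had adjusted p of 0.0600, 0.102, 0.0845 and 0.0761, so none passed, and each also lost its call without 4 or 5 of the 12 libraries in turn. In WT mice the lower genes were Cdkn2d (-1.38), Btg2 (-1.24), Cdkn2b (-1.73) and Cdkn2a (-2.86), and 3 of them belong with the member Cdkn2c to the INK4 family. Here too Cdkn2a was low, at 0.330, 0.510 and 0.636 CPM in WT cDC1 and 6.28, 3.86 and 0.455 CPM in WT cDC2. Cdkn2b lost its call without 1 library and Cdkn2a without 9 of the 12 in turn, and with the pool as a block the adjusted p was 0.0505 for Cdkn2b and 0.140 for Cdkn2a.

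Among G1 and S control and replication genes, E2f2 was lower in cDC1 in KO mice (-1.11) and in WT mice (-2.32), and E2f2 passed under the block in both. DNA ligase Lig1 was higher in cDC1 by 1.02 in KO and 1.05 in WT mice, and the phosphatase gene Cdc25a by 0.84 in KO and 0.95 in WT mice. With the block in KO mice the adjusted p was 0.0611 for Lig1 and 0.0535 for Cdc25a. In KO mice E2f8 (1.13), E2f7 (1.22), Wdhd1 (0.83) and the histone chaperone gene Chaf1a (0.92) were also higher in cDC1, and E2f7 passed under the block (0.0414) but E2f8, Wdhd1 and Chaf1a did not (0.0652, 0.0940 and 0.0841). In WT mice the firing kinase Cdc7 (-1.21) was lower in cDC1 and Mcm10 (0.77) and the E2F partner Tfdp2 (0.89) were higher, with 0.105 for Mcm10 and 0.0972 for Tfdp2 under the block. Calls on E2f2, Lig1 and Cdc7 in WT mice held without any single library, and the others of this paragraph ended without at least 1. In G1 and S control 3 of 18 tested were higher and 1 lower in KO mice, and 2 higher and 1 lower in WT mice. Origin licensing and firing genes were 1 of 18 higher and 0 lower in KO mice and 1 higher and 1 lower in WT mice. Replication machinery genes were 2 of 26 higher and 0 lower in KO mice and 1 higher and 0 lower in WT mice. All these counts stand beside the same shares of all genes.

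Late cell cycle genes outside the members were called in both directions. The cytokinesis motor Kif23 was higher in cDC1 by 1.75 in KO and 1.31 in WT mice and passed in both without any single library and under the block. The condensin subunit Ncapg2 was higher by 1.30 in KO and 0.83 in WT mice, with an adjusted p of 0.111 under the block in WT. In KO mice Anln (1.24) and Sgo2a (1.26) were higher, and the APC/C subunit genes Anapc11 (-1.18), Anapc13 (-1.04) and Anapc10 (-1.18) were lower, with 0.0978, 0.0748 and 0.0792 for these 3 and 0.0627 for Sgo2a under the block. With the block and a gene length offset Anapc13 was at -0.16 (adjusted p = 0.530). In WT mice Ncaph2 (0.57) was also higher in cDC1, and separase Espl1 (-1.86), Ccnf (-1.58) and the APC/C inhibitor Fbxo5 (-0.86) were lower, with 0.118 for Ncaph2 and 0.0527 for Fbxo5 under the block. Calls on Anln and Ncapg2 in KO mice and on Espl1 and Ccnf in WT mice held without any single library, and those on Sgo2a, the APC/C subunits, Ncaph2, Fbxo5 and Ncapg2 in WT mice ended without 5 to 10 of them in turn. APC/C genes were 0 of 15 higher and 3 lower in KO mice and 0 higher and 1 lower in WT mice. Condensin and cohesin genes were 1 of 14 higher and 0 lower in KO mice and 2 higher and 0 lower in WT mice. G2 and mitotic entry genes were 0 of 16 in KO mice and 0 higher and 1 lower in WT mice. All genes stood at 8.45% higher and 8.43% lower in KO mice and at 10.4% and 10.9% in WT mice. Spindle and cytokinesis genes, 3 of 44 higher and 0 lower in KO mice and 1 higher and 1 lower in WT mice, had no larger shares than these.

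Replicates 1 to 3 of a group differed widely for the longest members. Mki67 (10075 bases) had 18.3, 122 and 112 CPM in KO cDC1 and 79.7, 31.9 and 26.9 CPM in WT cDC1. It had 19.9, 60.1 and 50.2 CPM in KO cDC2 and 7.99, 76.9 and 71.0 CPM in WT cDC2. Replicate 1 was thus the lowest library in KO cDC1, KO cDC2 and WT cDC2 and the highest in WT cDC1. Cenpe (7813 bases) and Cenpf (11130 bases) were placed in the same way, with replicate 1 minus replicates 2 and 3 at -2.87 and -2.28 on the log2 scale in KO cDC1, 0.99 and 1.34 in WT cDC1, -1.40 and -0.61 in KO cDC2 and -3.38 and -4.78 in WT cDC2. The last of these, for Cenpf, rests on 3 reads in WT cDC2 replicate 1.

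Myb was also lowest in replicate 1 in KO cDC1, KO cDC2 and WT cDC2 and highest in WT cDC1, with shifts of -0.24, -0.85, -0.44 and 1.01. Ccnd2 and Ube2c were not placed in this way. Ccnd2 (5772 bases) had its highest cDC2 level in KO replicate 1, as given above. Ube2c (931 bases), whose promoter also holds TTTGAA and CCAAT, had replicate 1 minus replicates 2 and 3 at -0.72 in KO cDC1, -1.29 in WT cDC1, 0.51 in KO cDC2 and -0.03 in WT cDC2. The ratio of Mki67 to Ube2c in RPKM ran from 0.0235 in WT cDC2 replicate 1 to 0.406 in WT cDC1 replicate 1. Across the 43 members Spearman's correlation of gene length with this replicate 1 shift was -0.44 in KO cDC1, 0.48 in WT cDC1, -0.01 in KO cDC2 and -0.45 in WT cDC2, and across all 13415 genes -0.07, 0.59, 0.32 and -0.18. Genes in a library share its depth and RNA and are not independent, so these are descriptions.

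**Figure D5:**
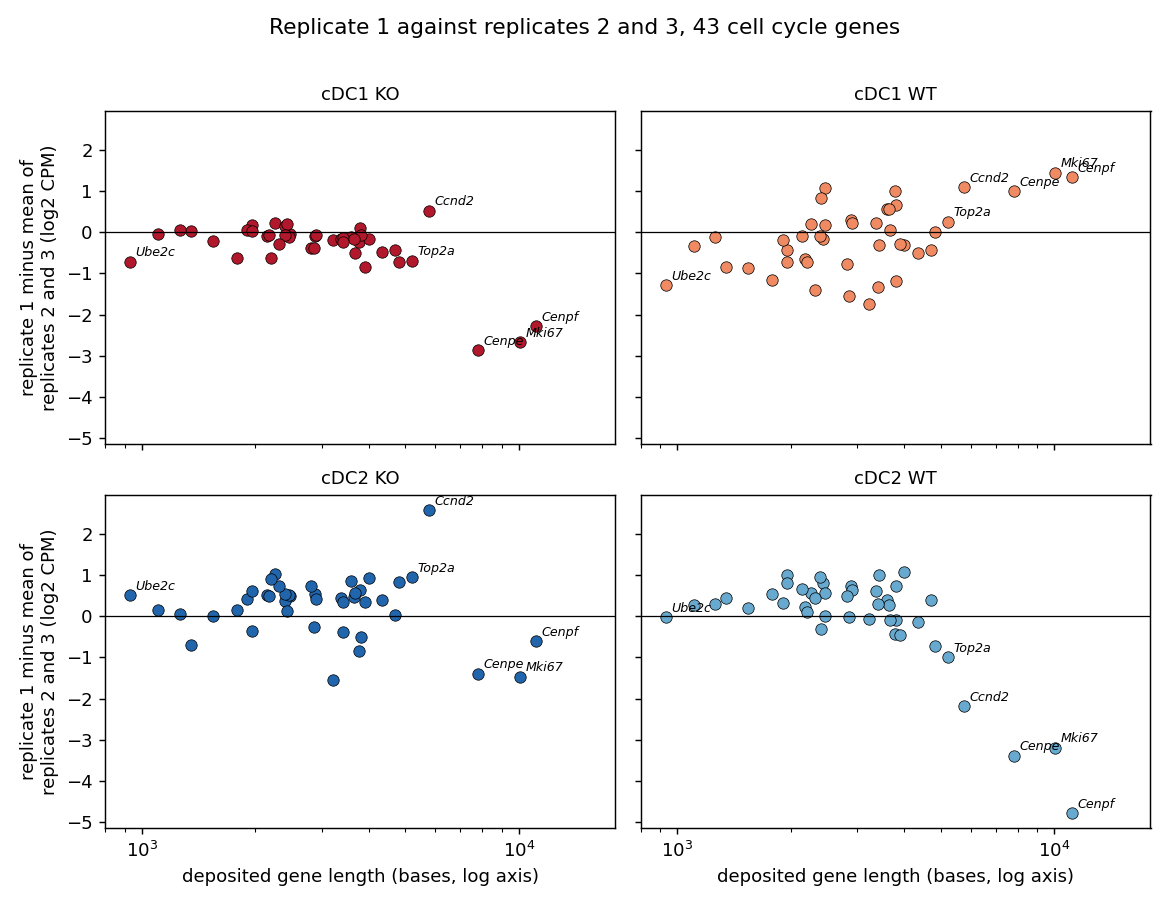
For each group, the log2 CPM of replicate 1 minus the mean of replicates 2 and 3 (vertical axis) against the deposited gene length (horizontal log axis), with 1 point per gene. Mki67, Cenpe and Cenpf lie below 0 in KO cDC1, KO cDC2 and WT cDC2 and above 0 in WT cDC1.

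Gene length also went with the fold changes. Across members the log2 fold change in cDC1, KO over WT, correlated with gene length at a Spearman's rho of 0.56, against 0.32 over all genes. In KO cDC1 against KO cDC2 rho was 0.45, against 0.30, and in WT cDC1 against WT cDC2 0.21, against 0.14. In cDC2, KO over WT, rho was 0.22, against 0.19. Markers of other cells differed between replicates too: the 8 erythroid and platelet markers summed to 8.01 to 14.0 CPM in the 4 replicate 1 libraries and to 47.5 to 133 CPM in the other 8, and their part in the member levels was not tested. With replicates 2 and 3 only, 16 members were called higher and 6 lower in cDC1, KO against WT, beside 24.9% and 22.9% of all genes. Between KO cDC1 and KO cDC2 the same libraries gave 28 higher and 6 lower, beside 25% and 24.2%, and between WT cDC1 and WT cDC2 17 and 6, beside 23.2% and 24.3%. In cDC2, KO against WT, they gave 0 higher and 1 lower, Ccnd2, beside 3.35% and 4.37%, and for the difference of the effects 12 and 6, beside 20.3% and 18.1%.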

How the data were processed

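The authors deposited whole-number counts of reads per gene with a gene length in bases, made on GRCm38 (mm10) with featureCounts, per the submitters' processing notes. RNA was polyA-selected and libraries were TruSeq, per the labels' protocols. The aligner, strand setting and annotation are not given in the sources used here. The spans of 13 members, from first to last base, overlap that of another counted gene (Ccnd1 and Cdk4 among them). Reads from a stretch in exons of both genes may not be told apart without strand, and whether exons overlap was not examined. The members and lists were chosen with earlier results of these data known. Entrez IDs were given symbols from RefSeq (25275) or GENCODE (18), with 1886 left without. In R 4.3.3, edgeR 4.0.16 fitted 4 group means over all 12 libraries (TMM scaling, filterByExpr, 13415 genes, robust quasi-likelihood F test), with calls at a Benjamini-Hochberg adjusted p below 0.05 and SE as the size of the log2 fold change over the root of F. Levels are CPM with TMM-scaled library sizes. The labels call the replicates mouse pools, and cDC1 and cDC2 of a pool come from the same mice, so subset comparisons were also fitted with the pool as a block (correlation of paired deviations 0.26, 0.14 and 0.14 in KO, -0.20, -0.11 and -0.07 in WT). Named genes were the called members, the members of smallest p up to 4 per comparison, the highest RPKM in each role, and up to 4 called genes per further list. Mki67, Cenpe and Cenpf were singled out after their values were seen. Alternatives used RLE factors, DESeq2 1.42.0, limma 3.58.1 (voom), other filters, left-out libraries and a loess gene length offset. On simulated data for KO cDC1 against WT cDC1 the test called 18% of 100 genes changed 2-fold, 90% of 100 changed 4-fold and 5 of 13215 unchanged genes, with 13243 genes in the fit. Simulated libraries were independent, with 1 mean per gene in all groups and no shift of replicate 1 or with gene length. All changes were rises in genes with a mean above 5 CPM, so these rates need not hold in the real libraries. The median SE of the members was 0.29 on the log2 scale in the real KO cDC1 against WT cDC1 comparison. SDs are over the 3 libraries of a group, each from its own pool. SEs come from the fit, which took the 12 libraries as independent although cDC1 and cDC2 of a pool share mice.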

Additional observations from a re-analysis of the deposited data

How the results depend on the processing

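All 43 members were kept under both other rules on low counts. Members called higher and lower in cDC1, KO against WT, were 1 and 0, and leaving out single libraries gave 0 to 3 and 0 to 2. They were 2 higher with only the groups compared, 2 with a replicate block on the numbers and 2 with that block and a gene length offset. With replicates 2 and 3 only they were 16 and 6, and with the length offset as well, chosen after seeing the data, 12 and 5. In cDC2, KO against WT, 0 were called except 1 lower with replicates 2 and 3 only and 2 lower with the offset as well. The difference of the effects had 0, with 0 to 1 higher on leaving out a library, 12 higher and 6 lower with replicates 2 and 3 only and 9 and 3 with the offset as well. Between KO subsets 3 were higher, 1 without a filter or with the pool block, 7 with only the groups compared, 1 to 8 on leaving out a library, 28 with replicates 2 and 3 only and 25 with the offset as well; 2 were lower, 1 to 2 on leaving out a library, 1 with the length offset, with or without the pool block, and 6 with replicates 2 and 3 only, 3 with the offset as well. Between WT subsets 1 was higher, 2 with RLE, DESeq2, the CPM filter, the length offset or the pool block with the offset, 1 to 4 on leaving out a library, and 17 with replicates 2 and 3 only, with or without the offset; 2 were lower, 1 with only the groups compared, and 6 and 5 with replicates 2 and 3 only, without and with the offset.

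Over 61 values of named genes, alternatives kept direction and side of the threshold 1116 times, lost the call 253 times, gained it 29 times and reversed 0 times. The cause of these moves was not tested. Pairing KO with WT by replicate number gave correlations of -0.07 to 0.11, and the best partner carried the same number for 2 of 12 libraries. These values cannot decide whether the numbers pair KO with WT. For cDC1 and cDC2 from shared pools the measure was 0.26, 0.14 and 0.14 in KO but -0.20, -0.11 and -0.07 in WT. Erythroid and platelet markers also separated replicate 1 from replicates 2 and 3 in both genotypes. With a block on replicate number, Ccnd1 was called beside Myb in cDC1 (adjusted p = 0.0337). The pool block changed no other member call than those of Cdc6 and Cdc45 in KO mice. RLE scaling moved the median of all genes by -0.05 to 0.02 on the log2 scale. The median SE of members in cDC1 was 0.29 on the log2 scale, and the effect of depth on it was not tested.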
